A study of Mus musculus with 12 samples.

Results

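The 6 genes of blood coagulation and plasminogen activation, F10, F3, Plau, Plaur, Serpinb2 and Thbs1, were followed across all 12 libraries of a mouse tumour experiment. All 6 were present in the count tables, which hold 19921 symbols. They were chosen by gene symbol as factor X, tissue factor, urokinase, its receptor, its inhibitor and thrombospondin 1, after differences in their levels between the 4 groups had been seen in these same libraries. Their levels, fold changes and calls are therefore given as a description, with no test, and support nothing on their own. Together they held 1446 counts, with 80 to 143 counts in a library.

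Coagulation starts when tissue factor, a membrane protein encoded by F3, binds factor VIIa and the complex cleaves factor X (F10) to factor Xa, the protease that makes thrombin. Fibrin is later dissolved by plasmin, which urokinase (Plau) makes from plasminogen while bound to its receptor on the cell surface (Plaur). Plasminogen activator inhibitor 2 (Serpinb2) blocks urokinase, and thrombospondin 1 (Thbs1) is a matrix and platelet protein that binds cells, proteases and latent TGF-beta. In tumours these genes are known from monocytes, macrophages and stromal cells as well as from carcinoma cells, and factor X in plasma comes mainly from the liver.

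The animals were wild-type BALB/c mice that received 200000 cells of Colon26, a mouse colon carcinoma line, under the skin of the right flank. In the combination group, mice were given both the HMGN1-derived immunostimulatory peptide minP1, 0.08 µg into the peritoneum on day 9, and the anti-PD-L1 antibody 10F.9G2, 200 µg into the peritoneum on days 4 and 8. The anti-PD-L1 group received the antibody alone, the minP1 group received the peptide alone, and the last group is labelled control. All tumours were taken on day 10, 1 day after the peptide dose. Each group had 3 libraries, each from the tumour of a separate mouse. For the combination, the peptide is named in the sample titles only, while the treatment field names the antibody after a plus sign. The labels state neither the age of the mice nor what control mice were injected with. After collagenase and DNase I treatment, a Percoll step took out dead cells and tumour cells, and polyadenylated RNA of the remaining cells was read from transcript 5′ ends (5'SAGE-seq).

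Totals ran from 133917 to 473273 counts per library, a 3.53-fold range, and the combination libraries were among the shallowest. Levels are given in CPM, the count of a gene per 1000000 counts of tested genes, scaled by the trimmed mean of M-values (TMM). A single count was worth 2.24 CPM in the deepest library and 8.54 CPM in the shallowest. A 5′ tag gives 1 read per transcript end, so no correction for length was made. Along the first principal component (49.7% of the variance), minP1 replicate 2 and anti-PD-L1 replicate 1 stood apart from the rest of their groups. The combination libraries spread from 30.9 to 59.8 along it. On the second component, combination replicate 3 lay at 32.6, against -4.02 and -4.27 for replicates 1 and 2. The share of counts taken by Bc1, a short rodent non-coding RNA, was 2.52%, 3.17% and 1.22% in the combination libraries, 2.22%, 1.16% and 1.80% with anti-PD-L1, 0.969%, 2.13% and 0.761% with minP1, and 1.16%, 0.931% and 0.688% in controls. The 3 combination libraries lay above all 3 control libraries in that share, by a narrow margin (1.22% against 1.16%). In TMM-scaled CPM the groups overlapped, with 12165 CPM in combination replicate 3 and 12433 CPM in control replicate 1.

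All 6 genes passed the filter on low counts, which asked for at least 34.8 unscaled CPM in 3 libraries. Plaur was over that level in 12 libraries, F10 in 11, Plau in 6, F3 in 5, and Thbs1 and Serpinb2 in 3 each. For Serpinb2 those 3 were the combination libraries, so it entered the fit only through the group in which it was high.

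In the GENCODE vM21 annotation of GRCm38 (mm10), all 6 are protein-coding genes on the + strand. F10 lies at chr8:13037308-13056676, F3 at chr3:121723537-121735048, Plau at chr14:20836660-20843385, Plaur at chr7:24462484-24475968, Serpinb2 at chr1:107511423-107535478 and Thbs1 at chr2:118111876-118127133. Serpinb2 overlaps Serpinb10 on the same strand. Serpinb10 had 2 counts in the combination, 1 with anti-PD-L1, 5 with minP1 and 4 in controls. Thbs1 overlaps the antisense non-coding gene Gm29233, and no label says whether counting used strand.

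Promoter windows, from 250 bases before to 50 bases after the start of the gene, were read from RefSeq on build GRCm38.p6. Of the 6 genes, 4 matched that table, and Serpinb2 did so with a pair of neighbouring starts. They are shown because Plaur, Serpinb2 and F10 stood higher together in the combination while F3 did not. The reference genome is that of C57BL/6J mice, whereas the tumours grew in BALB/c mice. The motif TGANTCA, which the AP-1 family binds, was searched on both strands and is printed in capitals, with N for any base. The windows are on the + strand, at chr1:107511173-107511472 for the upstream start of Serpinb2, chr7:24462233-24462532 for Plaur, chr3:121723287-121723586 for F3 and chr8:13037058-13037357 for F10.
Serpinb2: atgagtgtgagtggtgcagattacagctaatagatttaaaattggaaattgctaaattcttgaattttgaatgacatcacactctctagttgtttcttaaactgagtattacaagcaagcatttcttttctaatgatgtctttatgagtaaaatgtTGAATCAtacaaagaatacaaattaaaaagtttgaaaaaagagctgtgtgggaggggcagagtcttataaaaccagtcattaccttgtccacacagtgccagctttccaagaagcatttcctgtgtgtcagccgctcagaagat
Plaur: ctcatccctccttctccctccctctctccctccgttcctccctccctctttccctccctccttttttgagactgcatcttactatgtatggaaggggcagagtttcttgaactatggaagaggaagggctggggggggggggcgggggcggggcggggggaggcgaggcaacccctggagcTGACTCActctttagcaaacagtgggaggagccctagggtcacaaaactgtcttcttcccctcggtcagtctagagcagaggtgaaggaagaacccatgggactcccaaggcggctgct
F3: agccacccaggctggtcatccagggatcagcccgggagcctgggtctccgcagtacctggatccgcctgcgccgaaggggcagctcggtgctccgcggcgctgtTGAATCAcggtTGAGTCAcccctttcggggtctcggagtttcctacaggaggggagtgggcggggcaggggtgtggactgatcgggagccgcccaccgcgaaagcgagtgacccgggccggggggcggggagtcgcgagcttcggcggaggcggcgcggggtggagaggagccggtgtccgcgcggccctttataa
F10: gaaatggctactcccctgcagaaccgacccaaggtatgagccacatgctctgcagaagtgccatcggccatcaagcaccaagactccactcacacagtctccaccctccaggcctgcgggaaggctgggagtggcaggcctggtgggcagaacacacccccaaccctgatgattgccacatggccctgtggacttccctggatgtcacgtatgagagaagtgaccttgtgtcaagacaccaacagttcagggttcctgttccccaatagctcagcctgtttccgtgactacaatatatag

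TGANTCA was found once in the Serpinb2 window, at position -94 from the start (TGAATCA), once in Plaur at -69 (TGACTCA), and at 2 places in F3, at -146 (TGAATCA) and -135 (TGAGTCA). No TGANTCA is in the letters of the F10 window. The motif stands in 7.81% of the 32851 RefSeq promoter windows of the same length. F3, with 2 matches, overlapped between all groups in level, and F10, with none, was highest in the combination. Plau and Thbs1 had no window. The part of this motif in the levels was not tested. The Sp1 core GGGCGG, present in 35.7% of windows, was found at 3 places in Plaur, a pair of which share 1 base, and at 3 in F3. The F3 match at -58 is on the other strand. No TGANTCA match overlapped a match of another motif. The TATA motif TATAAA, present in 13.6% of windows, stood at -29 in Serpinb2 and, on the other strand, 43 bases after the start in F3. The hypoxia response core ACGTG, present in 19.6%, stood at -45 in F10, also on the other strand (CACGT as printed).

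F10, factor X, the zymogen at which the starting pathways of coagulation meet, had 367, 245 and 135 CPM in the 3 combination libraries, 127, 108 and 72.3 CPM with anti-PD-L1, 75.3, 201 and 79.0 CPM with minP1, and 40.1, 65.8 and 15.7 CPM in controls. Every treated library lay above every control library. The combination lay above anti-PD-L1 without overlap, but its lowest library fell below the highest minP1 library. By group mean the order was the combination (249 ± 116 CPM), minP1 (119 ± 71.8), anti-PD-L1 (102 ± 27.7) and control (40.5 ± 25.1; SD, n = 3 each), and minP1 and anti-PD-L1 did not differ beyond their spread. The log2 fold change over control was 2.66 ± 0.45 (SE) in the combination, a 6.32-fold difference, 1.38 ± 0.47 with anti-PD-L1 and 1.62 ± 0.46 with minP1.

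F10 was set beside the Bc1 share. The library with the highest F10 was also the one with the highest Bc1 share in 2 of the 4 groups, anti-PD-L1 (replicate 1) and minP1 (replicate 2). It was not in the combination (F10 in replicate 1, Bc1 in replicate 2) or in controls (F10 in replicate 2, Bc1 in replicate 1). When Bc1 was added to the fit as a covariate, the F10 log2 fold change in the combination over control was 1.66 ± 0.47, against 2.66 ± 0.45 without it. In anti-PD-L1 against control it was 0.73 ± 0.43 with the covariate. Combination replicate 3, with a Bc1 share of 1.22%, had 135 CPM of F10, against 40.1 CPM in control replicate 1, whose share was 1.16%. The part of Bc1 in the F10 difference was not tested further. Hepatocyte markers were at or near 0: Alb and Apoa1 together had 0 counts in the combination, 0 with anti-PD-L1, 3 with minP1 and 1 in controls.

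**Figure D1:**
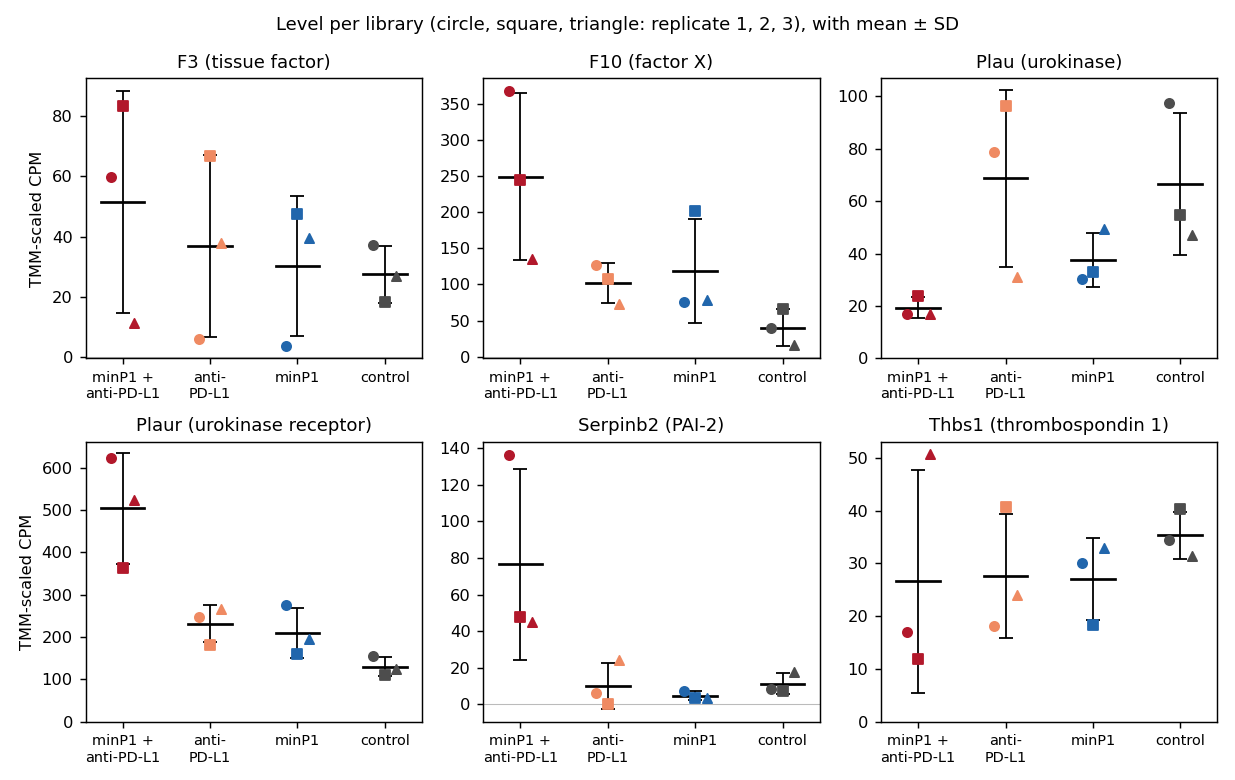
TMM-scaled CPM (y axis) of the 6 genes in each library, by group (x axis), with circle, square and triangle for replicates 1, 2 and 3, the line at the group mean and bars of 1 SD. The combination libraries of Plaur (364 to 623 CPM) lie above every other library, those of Plau (16.9 to 23.9 CPM) lie below every other library, and F3 and Thbs1 overlap between all groups.

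F3, tissue factor, the membrane receptor that starts coagulation, overlapped between all groups. It had 59.8, 83.5 and 11.3 CPM in the combination, 6.04, 66.7 and 37.9 CPM with anti-PD-L1, 3.76, 47.6 and 39.5 CPM with minP1, and 37.2, 18.3 and 26.9 CPM in controls. By group mean it ran from the combination (51.5 ± 36.8 CPM) through anti-PD-L1 (36.9 ± 30.4) and minP1 (30.3 ± 23.3) to control (27.5 ± 9.48; SD, n = 3 each), and no neighbours in that order differed beyond their spread. The libraries of each treated group spread more widely than the controls did. The lowest libraries of anti-PD-L1 and minP1 rested on a single count each. The log2 fold change over control was 0.84 ± 0.66 in the combination, 0.51 ± 0.63 with anti-PD-L1 and 0.14 ± 0.64 with minP1, each less than 2 SE from 0.

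Plaur, the receptor that holds urokinase on the cell surface, was the most abundant of the 6 genes by tag count. It had 623, 364 and 525 CPM in the combination, 248, 182 and 265 CPM with anti-PD-L1, 275, 161 and 194 CPM with minP1, and 155, 110 and 125 CPM in controls. The combination lay above the other 3 groups without overlap, and each lone treatment lay above the controls without overlap. Group means were 504 ± 131 CPM in the combination, 232 ± 44.1 CPM with anti-PD-L1, 210.0 ± 58.4 CPM with minP1 and 129.9 ± 22.8 CPM in controls (SD, n = 3 each), and the lone treatments did not differ beyond their spread. The log2 fold change of the combination was 1.94 ± 0.28 over control (3.83-fold), 1.11 ± 0.27 over anti-PD-L1 and 1.25 ± 0.27 over minP1. Against control it was 0.82 ± 0.28 with anti-PD-L1 and 0.68 ± 0.28 with minP1. Plaur kept its direction in all 6 comparisons under every alternative run, and its log2 fold change in the combination over control stayed between 1.83 and 2.19.

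Plau, urokinase, the protease that Plaur binds, ran the other way in the combination. Its counts were 2, 4 and 3 in the combination, 13, 26 and 9 with anti-PD-L1, 8, 9 and 15 with minP1, and 34, 15 and 21 in controls. In CPM these are 17.1, 23.9 and 16.9 in the combination, 78.6, 96.4 and 31.0 with anti-PD-L1, 30.1, 33.0 and 49.4 with minP1, and 97.3, 54.8 and 47.0 in controls. All 3 combination libraries lay below the other 9. The anti-PD-L1 group (68.7 ± 33.8 CPM) and the controls (66.4 ± 27.1 CPM) did not differ beyond their spread, and the minP1 group (37.5 ± 10.4 CPM) overlapped both. The log2 fold change of the combination (19.3 ± 3.97 CPM; SD, n = 3) was -1.74 ± 0.54 over control, -1.76 ± 0.55 over anti-PD-L1 and -0.94 ± 0.59 over minP1. The 9 counts of the combination have an exact 95% Poisson interval of 4.12 to 17.1 counts, and such intervals cover counting error only.

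Serpinb2, plasminogen activator inhibitor 2, a serpin made by monocytes and macrophages, was near its detection limit outside the combination. Its counts were 16, 8 and 8 in the combination, 1, 0 and 7 with anti-PD-L1, 2, 1 and 1 with minP1, and 3, 2 and 8 in controls. The levels were 137, 47.7 and 45.1 CPM in the combination, 6.04, 0 and 24.1 CPM with anti-PD-L1, 7.53, 3.66 and 3.29 CPM with minP1, and 8.59, 7.31 and 17.9 CPM in controls. The combination lay above the other 3 groups without overlap, and replicate 1 was well above the other combination libraries. In anti-PD-L1 replicate 2, the count of 0 allows a level of up to 11.1 CPM (3 counts). Anti-PD-L1, minP1 and control did not differ beyond their spread. The log2 fold change of the combination was 2.56 ± 0.66 over control (5.88-fold), 2.69 ± 0.72 over anti-PD-L1 and 3.80 ± 0.80 over minP1. Without anti-PD-L1 replicate 3, which held 7 of the 8 anti-PD-L1 counts, the log2 fold change over anti-PD-L1 was 4.70 ± 1.07.

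Thbs1, thrombospondin 1, the matrix protein of the set, overlapped between all groups. It had 17.1, 11.9 and 50.8 CPM in the combination, 18.1, 40.8 and 24.1 CPM with anti-PD-L1, 30.1, 18.3 and 32.9 CPM with minP1, and 34.3, 40.2 and 31.4 CPM in controls. Replicate 3 held 9 of the 13 combination counts, and the other combination libraries had 2 each. The log2 fold change over control was -0.32 ± 0.54 in the combination, -0.28 ± 0.49 with anti-PD-L1 and -0.35 ± 0.48 with minP1. Without combination replicate 3 it was -1.27 ± 0.72 in the combination, so that library decided the value.

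Receptor and protease could be set against each other within a library, where depth and scaling cancel. There were 36.5, 15.3 and 31.0 Plaur counts per Plau count in the combination, 3.15, 1.88 and 8.56 with anti-PD-L1, 9.13, 4.89 and 3.93 with minP1, and 1.59, 2.0 and 2.67 in controls. The combination lay above every other library. Serpinb2 counts per Plau count were 8, 2 and 2.67 in the combination and at most 0.778 in any other library. The denominators in the combination were only 2, 4 and 3 counts, so each ratio there has a wide counting error. In these bulk samples, fewer cells of a type and less RNA per cell cannot be told apart.

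**Figure D2:**
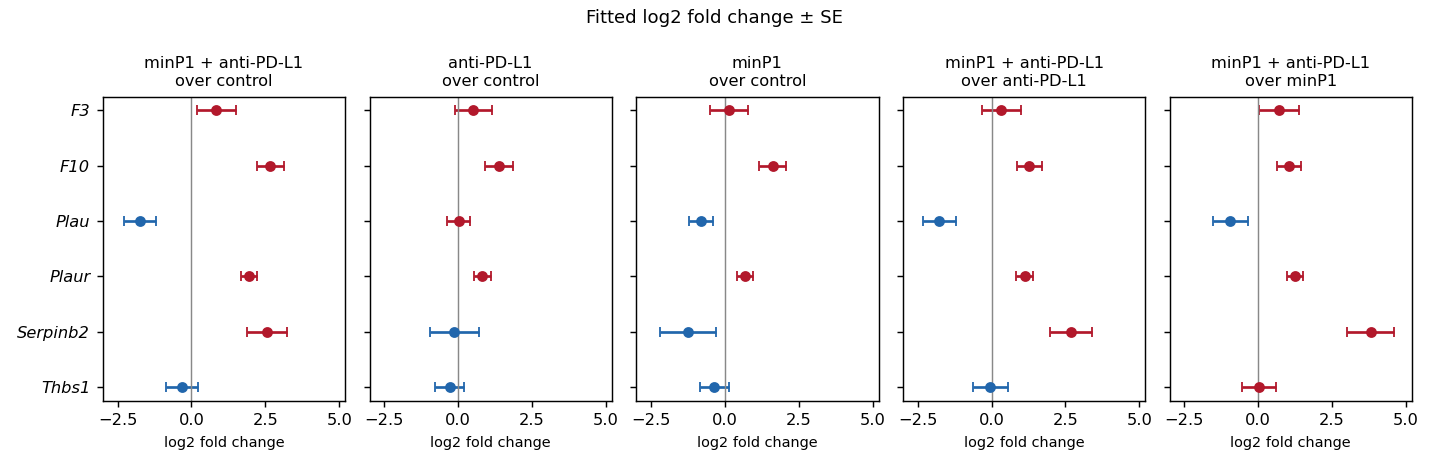
Fitted log2 fold change (x axis) with bars of 1 SE for the 6 genes (y axis), 1 panel per comparison. Serpinb2 (2.56), F10 (2.66) and Plaur (1.94) lie right of 0 and Plau (-1.74) lies left of 0 in the combination over control, while F3 (0.84) and Thbs1 (-0.32) lie within 2 SE of 0.

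Set side by side, 4 of the 6 genes were called in the combination against control at an adjusted p of 0.05 by edgeR's quasi-likelihood test over 5443 genes, F10, Plaur and Serpinb2 as higher and Plau as lower, where 34.8% of all tested genes were called (16.5% higher and 18.3% lower). Against anti-PD-L1, Plaur and Serpinb2 were called higher, beside 6.94% of all tested genes (2.99% higher and 3.95% lower). Against minP1 the same 2 genes were called higher, beside 20.0% (9.19% higher and 10.8% lower). None of the 6 was called with anti-PD-L1 against control (1.12% of all tested genes, 0.551% higher and 0.570% lower) or with minP1 against control, where edgeR called 0 of 5443 genes (383 at an unadjusted p under 0.05, 0 with DESeq2). Without the filter on low counts, F10 was called higher in both of those comparisons. Since the genes were chosen with these contrasts known, nothing is read from these counts. Single libraries decided some of them. Without combination replicate 1, only F10 and Plaur were called against control and 0 of the 6 against anti-PD-L1, and without anti-PD-L1 replicate 2 again 0 were called against anti-PD-L1. With Bc1 as a covariate, Plau (-1.72 ± 0.66) and Serpinb2 (2.15 ± 0.96) were not called in the combination against control. Plau was also not called there without control replicate 1 or without combination replicate 3. Against minP1, Serpinb2 was not called with DESeq2 or with a covariate for the number of genes detected. In the fit of the 2 groups alone and after thinning to equal depth it did not pass the filter, so it had no test. Plaur was called in each of these fits.

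The count of genes whose groups did not overlap ran alongside. In the combination against control 3 of the 6 were higher and 1 was lower without overlap, beside 20.4% and 25.5% of all tested genes. Against anti-PD-L1, F10, Plaur and Serpinb2 were higher and Plau was lower, beside 12.4% and 14.9%. Against minP1, Plaur and Serpinb2 were higher and Plau was lower, beside 16.6% and 20.9%. F10 and Plaur were higher without overlap with anti-PD-L1 against control, beside 11.1%, and with minP1 against control, beside 5.70%. None of the 6 was lower without overlap in those comparisons, beside 12.3% with anti-PD-L1 and 6.69% with minP1. These comparisons share control and treated libraries and are not independent of each other.

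The median log2 fold change of the 6 genes was 1.39 in the combination over control, where the median of all tested genes was -0.06. Over anti-PD-L1 it was 0.72 (all genes -0.04), and over minP1 it was 0.87 (all genes -0.09). With anti-PD-L1 over control it was 0.27 (all genes -0.03), and with minP1 over control it was -0.11 (all genes 0.00). The median hides opposite directions, since Plau ran against Plaur, Serpinb2 and F10.

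The interaction asks whether the step from anti-PD-L1 to the combination differs from the step from control to minP1. On the log2 scale it was 3.93 ± 1.20 for Serpinb2, 0.43 ± 0.39 for Plaur, 0.31 ± 0.76 for Thbs1, 0.20 ± 0.92 for F3, -0.35 ± 0.62 for F10 and -0.97 ± 0.71 for Plau. Serpinb2 alone lay further than 3 SE from 0, and it passed the filter only through the combination. By edgeR, 0 of 5443 genes were called for the interaction (600 at an unadjusted p under 0.05), and DESeq2 called 11, none of them among the 6.

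Across the 12 libraries, the log2 levels of Plaur and Serpinb2 had a Pearson r of 0.77, Plaur and F10 0.70, Plau and Plaur -0.72, and Plau and Serpinb2 -0.76. F3 stayed between -0.34 and 0.31 against the others. These values are a description over 12 libraries of 4 groups that also differ in depth and Bc1 share. Among 5437 other genes, the profiles most like that of F10 were those of 4930444P10Rik (r = 0.97), Gm42250 (0.97) and Gabra2 (0.96). Plaur was most like Fbrs (0.95), Ghitm (0.94) and Tnfrsf9 (0.94), and Serpinb2 was most like Cd302 (0.94), Ascc3 (0.92) and Edrf1 (0.90). For Plau the nearest were Ppp1r8 (0.85), Suclg2 (0.85) and Fos (0.84), for Thbs1 Luc7l2 (0.90), Utp18 (0.88) and Hnrnph1 (0.86), and for F3 Atg5 (0.84), Ndufs6 (0.82) and Immt (0.81).

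**Figure D3:**
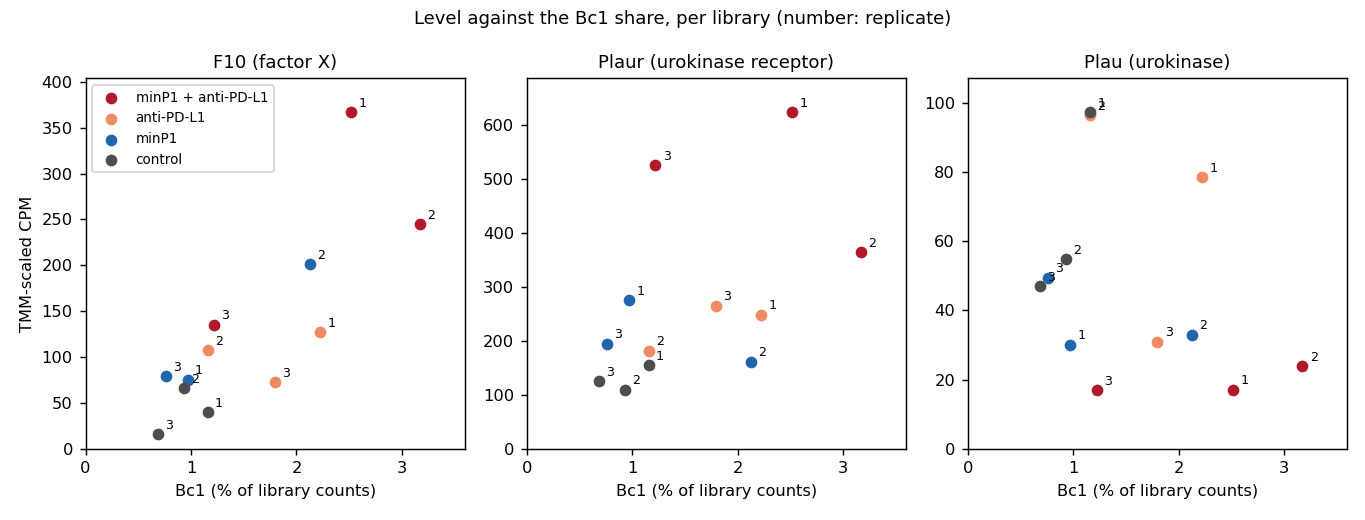
TMM-scaled CPM (y axis) of F10, Plaur and Plau against the share of library counts taken by Bc1 (x axis, percent), 1 point per library, coloured by group and numbered by replicate. The 4 highest F10 levels (135 to 367 CPM) are those of the combination and of minP1 replicate 2, at a Bc1 share of 2.13%, and the combination libraries of Plau stay between 16.9 and 23.9 CPM at shares of 1.22% to 3.17%.

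Other genes of coagulation, fibrinolysis and their receptors were taken from lists of 77 symbols, of which 56 were in the tables and 23 passed the filter. In the combination against control, edgeR's quasi-likelihood test called 9 of these 23 (39.1%), 5 higher and 4 lower, beside 34.8% of all tested genes, so the share was near the background. Their median log2 fold change was 0.24, against -0.06 for all tested genes. With minP1 against control 0 of the 23 were called, and with anti-PD-L1 against control 1 was, beside 1.12% of all tested genes. The combination against anti-PD-L1 called 2 of 23 (6.94% of all genes) and against minP1 it called 8 of 23 (20.0% of all genes). Against minP1, the number called was 3 without combination replicate 1, 4 without minP1 replicate 1, and 5 without combination replicate 2 or minP1 replicate 3. The interaction called 0 of 23. The interaction called Anxa5 in 4 of the alternatives, among them the fit without minP1 replicate 2.

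The receptors and partners of thrombospondin held 3 of the 5 genes that rose in the combination against control, out of 8 tested. All 3 were called higher and 0 lower. In either direction together, 37.5% of the list was called, near the 34.8% of all tested genes. By direction, 16.5% of all tested genes were called higher and 18.3% lower, and the list was not tested as a set. Cd36, a scavenger receptor that binds thrombospondin 1, reached 114 ± 15.6 CPM in the combination, against 18.0 ± 2.19 CPM in controls (SD, n = 3 each), a log2 fold change of 2.63 ± 0.41 (adjusted p 4.87e-05, edgeR). Its 3 combination libraries, at 120, 125 and 95.9 CPM, lay above the other 9. Fewer than 3 libraries outside the combination reached 34.8 unscaled CPM. Cd36 therefore passed the filter on low counts only through the group in which it was high, and its p-values are a description. It also rose over anti-PD-L1 (2.06 ± 0.41, adjusted p 0.00521) and over minP1 (1.97 ± 0.40, adjusted p 0.00134). Calr, calreticulin, a chaperone that at the cell surface takes part in thrombospondin signalling, averaged 1796 ± 238 CPM in the combination and 575 ± 81.3 CPM in controls (1.64 ± 0.25, adjusted p 4.74e-05). Itgav, the alpha-v integrin chain, averaged 279 ± 18.3 CPM in the combination and 102 ± 32.5 CPM in controls (1.43 ± 0.28, adjusted p 0.000487). Of the other 5, Cd47, the thrombospondin receptor that also signals to phagocytes, had -0.68 ± 0.44 and Thbs2 had 0.03 ± 0.46, and neither was called. Calr was the single listed gene called with anti-PD-L1 against control (1.07 ± 0.25, adjusted p 0.0357). That call was lost without control replicate 2 or without any 1 of the 3 anti-PD-L1 libraries, with adjusted p of up to 0.156. It was also lost with Bc1 as a covariate (edgeR adjusted p 0.200).

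Of 5 tested proteins that bind plasminogen at the cell surface, 2 rose and 1 fell in the combination against control, beside 16.5% higher and 18.3% lower among all tested genes. Itgb2, the beta-2 integrin chain of leukocytes, averaged 70.1 ± 26.7 CPM in the combination and 25.8 ± 3.46 CPM in controls (1.45 ± 0.41, adjusted p 0.00827), and the call was lost without combination replicate 3 (adjusted p 0.0756). Like Cd36, Itgb2 passed the filter on low counts only through the combination libraries. Anxa2, annexin A2, a docking site for plasminogen and tissue plasminogen activator, averaged 2036 ± 174 CPM in the combination and 1082 ± 178 CPM in controls (0.91 ± 0.23, adjusted p 0.00413). With Bc1 as a covariate its adjusted p was 0.0524. Eno1, a glycolytic enzyme that also binds plasminogen at the surface, averaged 74.2 ± 14.9 CPM in the combination and 198 ± 39.0 CPM in controls (-1.40 ± 0.33, adjusted p 0.00226). Its value is uncertain where near-identical gene copies shared its reads, and with the Bc1 covariate its adjusted p was 0.0838. S100a10, the partner of annexin A2, had -0.42 ± 0.31 and was not called.

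Further genes of plasminogen activation and fibrinolysis, Plat, Lrp1 and Serpinb6a, were not called in the combination against control by edgeR's quasi-likelihood test. Plat, tissue plasminogen activator, averaged 18.3 ± 7.17 CPM in the combination and 32.0 ± 5.58 CPM in controls (-0.85 ± 0.60). Lrp1, which clears protease-inhibitor complexes, had -0.23 ± 0.30, and Serpinb6a, another clade B serpin, had 0.40 ± 0.25.

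**Figure D4:**
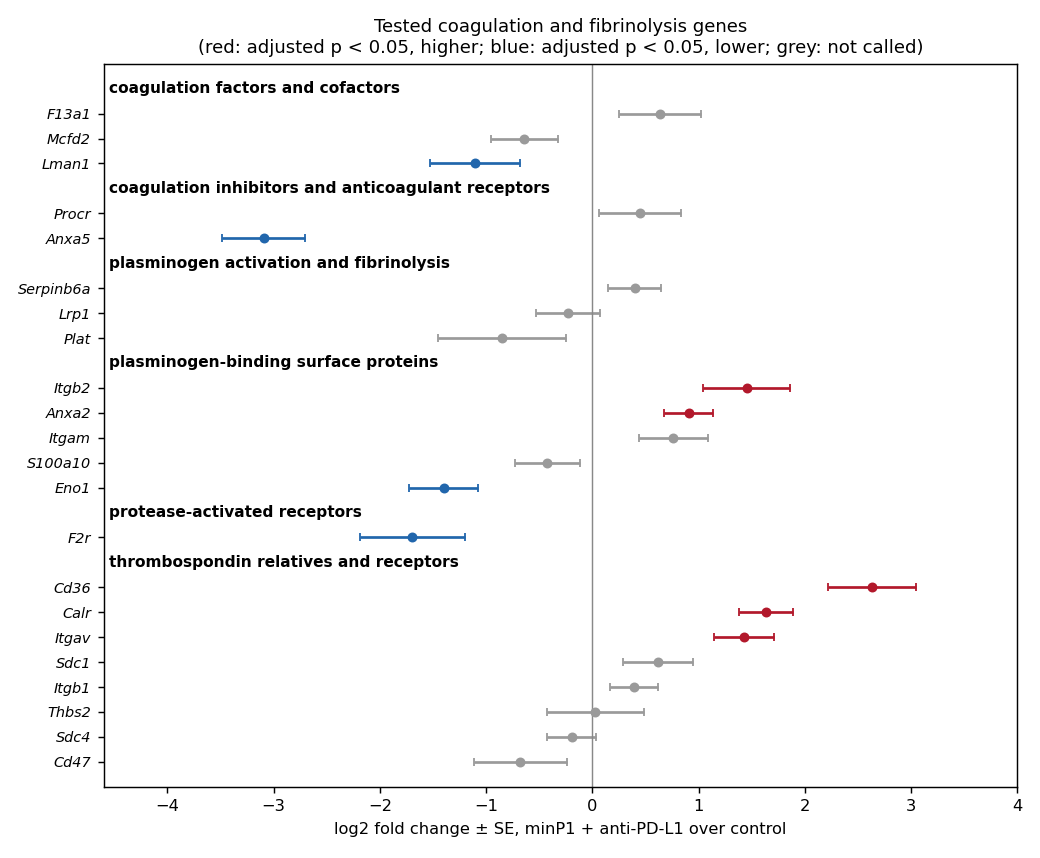
Log2 fold change of the combination over control (x axis, bars of 1 SE) for 22 of the 23 tested genes of the coagulation and fibrinolysis lists (y axis), with red for higher and blue for lower at an edgeR adjusted p under 0.05 and grey for genes not called. Cd36 (2.63), Calr (1.64), Itgb2 (1.45), Itgav (1.43) and Anxa2 (0.91) lie to the right, and Anxa5 (-3.09), F2r (-1.69), Eno1 (-1.40) and Lman1 (-1.10) to the left.

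Among coagulation inhibitors, Anxa5 fell most of the 23. Annexin A5 covers phosphatidylserine and so keeps coagulation complexes off membranes. It had 68.3, 41.8 and 50.8 CPM in the combination, 151, 297 and 241 CPM with anti-PD-L1, 478, 183 and 537 CPM with minP1, and 429, 424 and 497 CPM in controls. The combination lay below every other library. Its log2 fold change was -3.09 ± 0.39 over control (adjusted p 5.92e-06, edgeR), -2.15 ± 0.41 over anti-PD-L1 (adjusted p 0.00468) and -2.92 ± 0.40 over minP1 (adjusted p 3.54e-05). The protein C receptor Procr, the other inhibitor gene tested, had 0.45 ± 0.38 in the combination over control and was not called.

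The thrombin receptor F2r, the only protease-activated receptor tested, fell to 19.2 ± 17.4 CPM in the combination, against 70.0 ± 11.3 CPM in controls (-1.69 ± 0.49, adjusted p 0.0107). It had no count in combination replicate 1, and without that library the adjusted p was 0.062. With Bc1 as a covariate the edgeR adjusted p of F2r was 0.121. Lman1, the endoplasmic reticulum receptor that carries factors V and VIII, averaged 34.9 ± 18.4 CPM in the combination and 75.6 ± 12.4 CPM in controls (-1.10 ± 0.43, adjusted p 0.0467), and kept its call in 2 of 12 fits that left out a library. The Bc1 covariate gave it an edgeR adjusted p of 0.109. F13a1, the A chain of the fibrin-crosslinking factor XIII, was not called against control. It averaged 117 ± 77.9 CPM in the combination and 36.5 ± 16.4 CPM with minP1, a log2 fold change of 1.58 ± 0.43 (adjusted p 0.0120), and the call was lost without combination replicate 1 or minP1 replicate 1. The call was also lost with the Bc1 covariate (edgeR adjusted p 0.0967).

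Of the 56 listed genes in the tables, 33 had too few counts for the main fit. Without the filter, F5 was the only one called in the combination against control, and it is named here after its values were seen. F5, factor V, the cofactor with which factor Xa makes thrombin, had 13 counts in the combination, 3 with anti-PD-L1, 1 with minP1 and 1 in controls. Per total count, the combination stood 29.1 times as high as control, with an exact counting interval of 4.37 to 1237 (adjusted p 0.00175 without the filter, edgeR). Thbd, thrombomodulin, the endothelial and monocyte receptor that turns thrombin towards protein C, had 1 count in the combination, 3 with anti-PD-L1, 10 with minP1 and 21 in controls. Its ratio of the combination to control was 0.107, with a counting interval of 0.00258 to 0.663 (adjusted p 0.0724 without the filter). Of the 7 clade B serpins of a list that held neither Serpinb2 nor Serpinb6a, none passed the filter. Serpinb9 had 19 counts in the combination, 13 with anti-PD-L1, 17 with minP1 and 13 in controls. Its ratio of the combination to control was 3.27, with a counting interval of 1.53 to 7.21 (edgeR adjusted p 0.0624 without the filter). Serpinb8 had 10, 0, 6 and 6 counts in the same order. Both are named after their values were seen, and the others had at most 5 counts in any group.

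Markers of other cells moved in the same direction as some of these genes. The summed level of 10 macrophage markers, all detected, ran from 2047 to 4388 CPM in the combination, 968 to 1590 CPM with anti-PD-L1, 790 to 1212 CPM with minP1 and 1022 to 1196 CPM in controls. For 8 monocyte markers, all detected, it ran from 1552 to 1895 CPM in the combination, 1384 to 1732 CPM with anti-PD-L1, 1091 to 1396 CPM with minP1 and 1002 to 1124 CPM in controls. The combination lay above control for both lists, as it did for Plaur, Serpinb2 and F10. Single markers differed: Apoe, an apolipoprotein of macrophages, averaged 1257 ± 589 CPM in the combination and 177 ± 58.9 CPM in controls. It made up more of the macrophage difference than any other marker. Means were lower in the combination than in controls for C1qb (57.5 ± 39.5 against 75.1 ± 10.9 CPM), Mertk (7.57 ± 8.70 against 17.7 ± 5.73 CPM) and Cd68 (1.99 ± 3.45 against 4.35 ± 3.85 CPM). The other macrophage markers had higher means there. In the monocyte list, Fn1 made up most of the sum, with 1148 ± 198 CPM in the combination and 761 ± 29.2 CPM in controls. Ccr2 was the only monocyte marker with a lower mean in the combination (131 ± 23.2 CPM) than in controls (151 ± 14.5 CPM). For 8 neutrophil markers the sum was 519 to 615 CPM in the combination, 220 to 293 CPM with anti-PD-L1, 230 to 297 CPM with minP1 and 318 to 375 CPM in controls. Of its members, S100a9 (3.11 ± 0.44, edgeR adjusted p 1.98e-05), Mmp9 (164 ± 58.8 CPM in the combination and 3.39 ± 3.69 CPM in controls, adjusted p 1.04e-06) and Csf3r (1.25 ± 0.38, adjusted p 0.0139) rose in the combination against control, and Cxcr2 fell (-1.16 ± 0.26, adjusted p 0.00170). Mmp9 was at most 18.1 CPM outside the combination. It passed the filter on low counts only through the combination libraries, so its p is a description. The defining marker Ly6g was at 0 in the combination and in controls, and Retnlg was at 0 in the combination. The part of these cell types in the levels of Plaur, Serpinb2 and F10 was not tested.

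In summed marker levels, the combination overlapped the controls for fibroblasts, platelets and epithelium, and lay above them for endothelium. The summed level of 9 fibroblast markers was 762 to 1229 CPM in the combination, 919 to 1071 CPM with anti-PD-L1, 970 to 1126 CPM with minP1 and 950 to 1382 CPM in controls, and all groups overlapped. Of the 4 fibroblast markers tested, Col1a2 (-0.81 ± 0.21, edgeR adjusted p 0.00520) and Pdgfra (-2.05 ± 0.57, adjusted p 0.00788) fell in the combination against control, and Col1a1 (0.53 ± 0.30) and Col3a1 (-0.04 ± 0.44) were not called. The sum over 8 platelet and megakaryocyte markers was 17.1 to 79.0 CPM in the combination, 44.8 to 74.1 CPM with anti-PD-L1, 40.3 to 56.4 CPM with minP1 and 40.3 to 60.1 CPM in controls, with Gp9 and Gp6 at 0 in the combination. Over 8 endothelial markers the sum was 41.8 to 76.8 CPM (24 counts) in the combination, 0 to 27.6 CPM (14 counts) with anti-PD-L1, 11.3 to 21.97 CPM (15 counts) with minP1 and 10.97 to 34.3 CPM (25 counts) in controls. The combination lay above the other 9 libraries, but 15 of its 24 counts were of Pecam1, which leukocytes and platelets also express. Cdh5, the endothelial cadherin, averaged 8.60 ± 2.66 CPM in the combination and 9.03 ± 1.98 CPM in controls, Kdr was at 0 in the combination, and Tek was at 0 in all 3 treated groups. The part of these cells in the levels of the 6 genes was not tested. Over 5 epithelial markers it was 0 to 59.7 CPM (15 counts) in the combination, 11.1 to 17.2 CPM (10 counts) with anti-PD-L1, 3.66 to 23.1 CPM (11 counts) with minP1 and 21.9 to 28.6 CPM (27 counts) in controls.

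**Figure D5:**
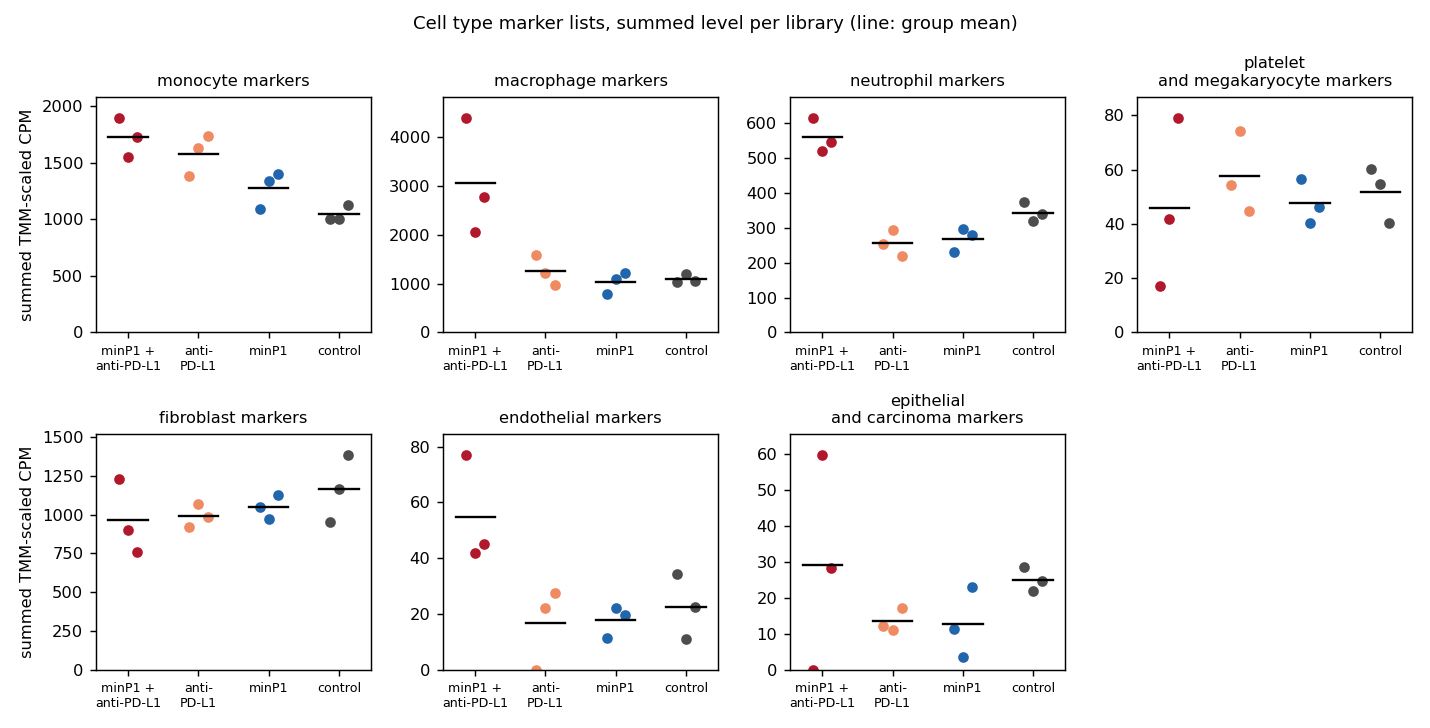
Summed TMM-scaled CPM (y axis) of cell type marker lists in each library, by group (x axis), with a line at the group mean. The macrophage sums of the combination (2047 to 4388 CPM) and its neutrophil sums (519 to 615 CPM) lie above all other libraries, and the fibroblast sums overlap between all groups.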

How the data were processed

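RNA of 12 tumour samples was measured by 5'SAGE-seq, and the authors deposited 1 table per sample with whole-number counts per gene symbol and no normalization. Bowtie2 2.2.5, R 3.6.1, DESeq2 and build mm10 are named per the submitters' processing notes, with no roles given. The counter, its annotation and its use of strand or of reads matching several genes are not stated, and no molecular identifiers are recorded.

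Groups were taken from the sample titles. edgeR's filterByExpr kept 5443 of 19921 symbols, and the other 14478 had no test. TMM factors scaled the counts, which were then fitted with edgeR's quasi-likelihood test (edgeR 4.0.16, limma 3.58.1, R 4.3.3), with 1 mean per group, all 12 samples in the fit and Benjamini-Hochberg adjustment over all tested genes in each of 6 comparisons, at a threshold of 0.05. A prior count of 0.125 entered the fold changes. The dispersion common to all genes, 0.0506, equals a biological coefficient of variation of 22.5%. An exact permutation test was not used, since 3 samples against 3 allow no p below 0.1. DESeq2 1.42.0 was run as an alternative. The code was tested on simulated counts.

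The genes and lists were chosen with earlier results of these data known, and the Bc1 share and the libraries that stand apart were also known from them. All 6 genes were described in every group. Of the pathway lists, any gene called in a pairwise comparison, or else up to 4 per list by smallest p, could be named, and 1 listed gene is not reported here. For likeness the 3 other genes with the highest Pearson r of log2 CPM (prior count 2) were named. The main fit did not use the replicate numbers to pair samples.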

Additional observations from a re-analysis of the deposited data

Results flagged for a closer look

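Sdc4, syndecan 4, a heparan sulfate proteoglycan among the partners of thrombospondin, stood out because the step that adds minP1 ran in opposite directions with and without the antibody. It averaged 389.9 ± 58.8 CPM in the combination, 574 ± 35.8 CPM with anti-PD-L1, 615 ± 42.2 CPM with minP1 and 445 ± 93.5 CPM in controls (SD, n = 3 each). All 3 combination libraries lay below all 3 anti-PD-L1 libraries (log2 fold change -0.56 ± 0.23, edgeR adjusted p 0.142), whereas all 3 minP1 libraries lay above all 3 controls (0.46 ± 0.22, adjusted p 0.696). Sdc4 was picked by this lack of overlap in opposite directions, so the pattern is a description. Of all tested genes, 14.9% were lower without overlap in the former comparison and 5.70% higher in the latter. The test of the difference itself, the interaction, gave -1.02 ± 0.32 with an edgeR adjusted p of 0.237, and 0.0875 to 0.551 under the alternatives, so it did not pass the threshold.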

How the results depend on the processing

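The 36 fold changes of the 6 genes were recomputed under 712 alternative values. None reversed a value called in the combination, 22 of the 36 stayed within 1 SD throughout, 20 values moved by more, and 43 changed sign, all of values within error of 0 (F3, Thbs1, Plau and Serpinb2 with anti-PD-L1 over control, and the F10 interaction). Leaving out minP1 replicate 2 with anti-PD-L1 replicate 1, and a covariate for genes detected at equal depth, were chosen after seeing the data.

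In the combination over control, the Bc1 covariate gave a log2 fold change of 1.66 for F10 and 0.50 for Thbs1, and the detected-genes covariate gave 0.52 for Thbs1. Leaving out 1 library at a time gave -1.97 to -1.31 for Plau, the last without control replicate 1, and -1.27 to 0.13 for Thbs1. Of the 6 genes, 4 were called there. DESeq2 and leaving out control replicate 1 or combination replicate 3 called 3 (not Plau), and the fit of the 2 groups alone called 3 (not Serpinb2). Thinning to equal depth, the Bc1 covariate, the detected-genes covariate and leaving out combination replicate 1 each called 2. Serpinb2 did not pass the filter in the fit of the 2 groups alone, and neither Serpinb2 nor Plau passed it after thinning. The cause of the other changes was not tested.

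Counts of other pathway genes called also moved. With anti-PD-L1 against control (1), the Bc1 covariate, the detected-genes covariate and leaving out both libraries that stand apart each called 0, and leaving out 1 library called 0 to 2. In the combination against control (9), the Bc1 covariate called 5 and the detected-genes covariate 3. Against anti-PD-L1 (2), DESeq2 and thinning each called 1, and Cd36 had no adjusted p in either fit. Against minP1 (8), thinning and the Bc1 covariate each called 4, the detected-genes covariate 1, and leaving out 1 library 3 to 9. After thinning, Cd36 had no adjusted p against minP1 either. For the interaction (0), leaving out the filter, the Bc1 covariate and leaving out both libraries that stand apart each called 1, and leaving out 1 library called 0 to 1. That gene was Anxa5 each time, lower, with edgeR adjusted p of 0.00673, 0.0287, 0.00306 and, without minP1 replicate 2, 0.0234.

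Of 18 pairs of samples with the same replicate number, 9 had deviations correlated above 0.1 (range -0.137 to 0.211). The median r was 0.096 in these pairs and -0.043 in pairs with different numbers. No label says that the numbers pair samples, so the main fit used no pairing. A structure shared by replicate number was not tested further. A replicate block called 9 pathway genes in the combination against control and 9 against minP1, and F10 kept a log2 fold change of 2.66. Among the 6 genes it called 4 against control, 4 against anti-PD-L1 and 3 against minP1, and it also called F10 with anti-PD-L1 against control, where the fit without it called none of the 6.

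Depth limits Plau, Serpinb2, F3 and Thbs1 most: single libraries hold 0 to 34 counts of them, and 3 counts were worth 6.72 to 25.6 CPM.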
